A study of Mus musculus with 24 samples.

Results

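The 10 genes described here encode inhibitors and negative regulators of NF-κB signalling: the classical IκB proteins Nfkbia, Nfkbib and Nfkbie, the nuclear IκB proteins Nfkbid and Bcl3, the ubiquitin regulators Tnfaip3, Tnip1, Cyld and Otulin, and the receptor-proximal inhibitor Irak3. They were chosen by gene symbol. All 10 were found among the 54446 gene identifiers counted, each under 1 identifier, and all 10 passed the filter on low values (at least 10 counts in at least 3 libraries).

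The study profiled CD11b+ myeloid cells from MC38 tumours, a transplanted mouse colon carcinoma line, by MeRIP-seq, in which RNA fragments carrying N6-methyladenosine (m6A) are pulled down with an antibody (IP) and sequenced beside the starting RNA (Input). WT animals carried loxP-flanked Ythdf2 alleles without Cre (Ythdf2 fl/fl), and cKO animals carried the same alleles with Cre expressed from the Lyz2 locus (Lyz-Cre+;Ythdf2 fl/fl), which directs recombination to myeloid cells that express Lyz2. Both were on C57BL/6J. Tumours received a single dose of 20 Gy (IR) or none (Ctrl), and cells of the IR groups were collected 3 days later. Each of the 4 groups had 3 Input and 3 IP libraries, made from cells pooled over several mice, so p-values measure the spread between these libraries, which may be technical.

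The libraries held 65180075 to 86421888 counts. Replicates of a group differed beyond counting error, most of all WT IR Input replicates 1 and 2, whose chi-square per degree of freedom was 42.4 against 3.56 to 20.0 for the other Input pairs. Itgam, which encodes CD11b, was abundant in every Input group, with means of 337 to 412 CPM (counts scaled by the effective library size), whereas the summed level of 5 T and NK cell markers was at most 1.51 CPM and that of 3 fibroblast markers at most 0.575 CPM, with Cd3e and Dcn at 0 in some groups. The sums of 4 tumour epithelium markers ran from 5.49 to 8.1 CPM (Krt8 and Krt18 at 0 in some groups). Those of 3 endothelial markers ran from 1.62 to 3.74 CPM. Neutrophil markers differed between groups: the 6 genes summed to 1790 to 1870 CPM in WT Ctrl, 875 to 881 in cKO Ctrl, 452 to 487 in WT IR and 463 to 483 in cKO IR, with none at 0. The 5 monocyte markers also differed, at 805 to 860 CPM in WT Ctrl, 676 to 717 in cKO Ctrl, 318 to 382 in WT IR and 423 to 434 in cKO IR, as did 5 dendritic cell markers, at 839 to 913 CPM over the unirradiated and 1320 to 1460 over the irradiated Inputs (Xcr1 at 0 in WT IR and cKO Ctrl, Cd209a at 0 in WT IR). The 4 granulocyte precursor markers summed to 50.7 to 56.4 CPM in WT Ctrl, 15.7 to 17.5 in cKO Ctrl and at most 0.211 in the irradiated groups (Elane at 0 in WT IR), and 3 erythroid markers to between 22 and 24.1 CPM in WT IR and at most 0.0593 elsewhere (Hbb-bs at 0 in cKO IR). The sums of 6 macrophage markers ran from 3620 to 4150 CPM over all 12 Inputs. In bulk RNA, fewer cells of a type and less RNA per cell cannot be told apart, and the part of these shifts in the results below was not tested.

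The targeted gene did not follow its label at the gene level. Ythdf2 Input levels were 178 CPM ± 6.05 (SD, n = 3) and 223 ± 7.25 in the Ctrl and IR libraries labelled cKO and 96.8 ± 1.23 and 105 ± 1.51 in those labelled WT, and the rise passed the test in both Ctrl (log2 fold change 0.88 ± 0.036, standard error) and IR (1.08 ± 0.036). A count over the whole gene also takes reads outside a deleted part, and the part of such reads in the higher Ythdf2 levels was not tested. Lyz2, whose locus carries the Cre, did separate the Inputs: the means were 20586 CPM (Ctrl) and 20745 CPM (IR) for WT, and 299.8 and 409 CPM for cKO. In the IP libraries it did so only in Ctrl. Mean Lyz2 was 16116 CPM in WT Ctrl IP and 88.6 in cKO Ctrl IP, but 89.6 in the libraries labelled WT IR IP and 19700 in those labelled cKO IR IP, each close to what the opposite genotype shows. "WT" and "cKO" are used below as labels. Results that need the irradiated IP libraries are given by label and, where stated, with those libraries exchanged or with the other label's Input.

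NF-κB transcription factors are held inactive in the cytoplasm by IκB proteins. Signals from Toll-like receptors, the IL-1 receptor or TNF receptors build ubiquitin chains that recruit and activate the IκB kinase complex, IκB is phosphorylated and degraded, and the factors enter the nucleus. The pathway brakes itself, since many of its inhibitors are among its own target genes. In tumour-associated myeloid cells it drives inflammatory cytokine and chemokine genes.

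The sequence before the transcription start is shown because of that feedback. The 10-letter κB consensus was searched on both strands in RefSeq promoters (GRCm38.p6, 250 bases before to 50 after each start, all annotated starts). At least 1 match was found in 6 of the 10 genes, against 6.55% of 27025 genes in the table. Each site is given with its surroundings on the gene's strand, with the matching letters in capitals. A match is a description of the sequence, and the 4 genes without one (Nfkbib, Nfkbie, Otulin and Irak3) lack only these letters in this window.
Nfkbia, minus strand, chr12:55492657-55492686: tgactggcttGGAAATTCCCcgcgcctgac
Tnfaip3, minus strand, chr10:19015403-19015432: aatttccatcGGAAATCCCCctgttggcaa
Tnip1, minus strand, chr11:54962978-54963007: tccatcatggGGGAATTCCCctcctgcctc
Bcl3, minus strand, chr7:19822734-19822763: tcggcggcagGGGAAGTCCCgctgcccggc
Nfkbid, plus strand, chr7:30422170-30422199: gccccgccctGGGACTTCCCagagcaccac
Cyld, plus strand, chr8:88696863-88696892: ttgaccgagcGGAAAGTCCCttcagccagc
In Nfkbia, Tnfaip3 and Tnip1 the first matching base lay 29, 12 and 57 bases before the start, in Cyld and Nfkbid 155 and 226 bases before it (for Nfkbid, in 1 of 3 annotated promoters), and in Bcl3 2 bases after it.

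All 10 genes were expressed in every Input library. Per kilobase of exon, the mean Input level over the 12 libraries was highest for Nfkbia (251 CPM per kb) and Tnip1 (155), followed by Irak3 (83.2), Nfkbie (54.7), Otulin (51.2), Nfkbib (49.0), Bcl3 (33.3), Tnfaip3 (26.0), Nfkbid (11.7) and Cyld (5.71). Nfkbia and Tnip1 stood at the 99.0th and 98.3rd percentile of the genes tested. The group means of Tnip1 spanned 0.063 on the log2 scale, a range wider than that of only 0.622% of genes, whereas those of Irak3 spanned 0.58 and those of Nfkbib 0.50.

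**Figure D1:**
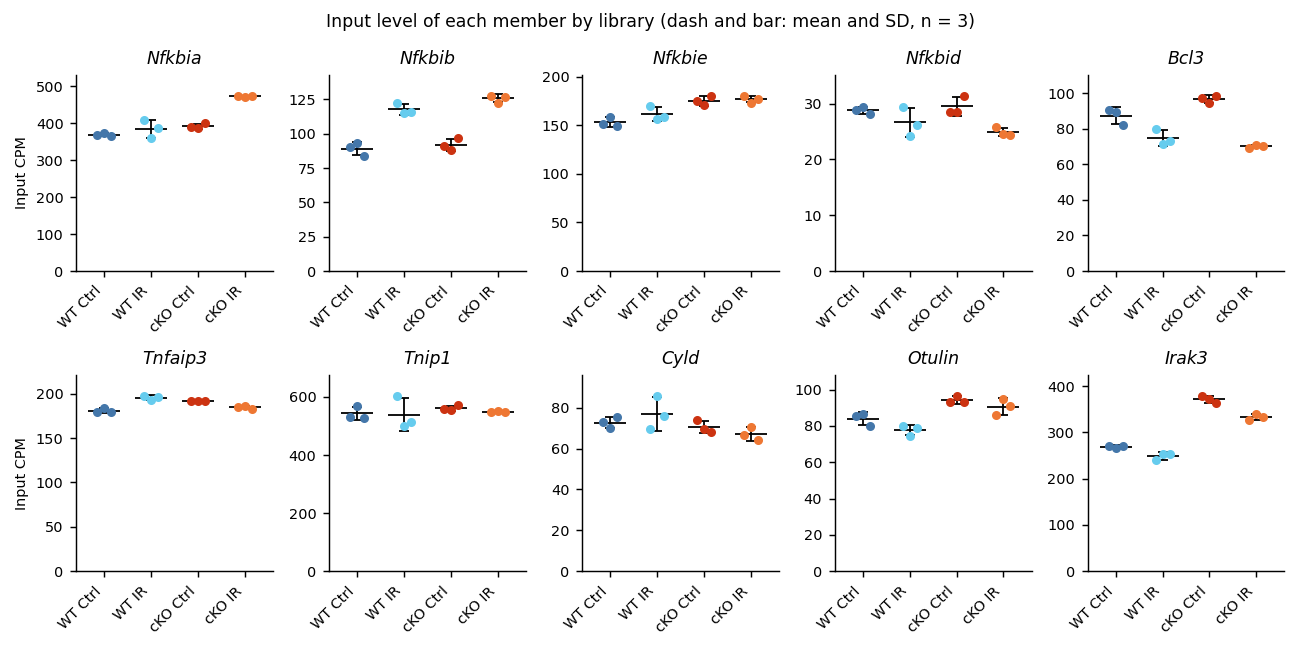
Input level in CPM (linear axis from 0) of each gene in the 12 Input libraries, by group. Points are libraries, dashes and bars are mean and SD (n = 3). Irak3 separated the genotypes (240 to 271 CPM in WT, 326 to 379 in cKO), Nfkbib separated irradiated from unirradiated groups, and Tnip1 changed least.

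The design asks what irradiation changed in each genotype and what the genotype changed in each condition. Both questions were asked of the Input counts with edgeR's quasi-likelihood test over 16090 genes, calling a gene at a Benjamini-Hochberg adjusted p below 0.05. Irradiation changed 4 of the 10 regulators in WT, 2 up and 2 down, where 31.7% of all genes were called. It changed 5 in cKO, 2 up and 3 down, where 45.6% were called. Genotype changed 4 without irradiation, all up, where 15.7% of genes were called, and 6 after irradiation, 4 up and 2 down, where 47.7% were called. These contrasts share groups and are not independent of each other. The irradiation effect itself differed between genotypes for 3, against 30.2% of genes. The median log2 change of the 10 was 0.03, -0.06, 0.09, 0.06 and -0.06 in these 5 contrasts, and that of all genes lay between -0.0028 and 0.01.

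Of the classical IκB proteins, Nfkbia (chr12:55489410-55492647) encodes IκBα, the rapidly resynthesised inhibitor. Its Input levels were 369, 374 and 365 CPM in WT Ctrl, 408, 360 and 387 CPM in WT IR, 390, 385 and 399 in cKO Ctrl, and 474, 469 and 472 in cKO IR. The 3 cKO IR libraries lay above all others, the cKO Ctrl libraries lay above those of WT Ctrl, and the 2 WT groups overlapped. Irradiation raised Nfkbia in cKO by 0.27 ± 0.037 on the log2 scale (adjusted p = 3.82e-06), while the change in WT was 0.06 ± 0.037 (adjusted p = 0.23, or 0.00939 at a change of 0.11 without WT IR replicate 2), and the difference between those changes passed the test (0.21 ± 0.052, adjusted p = 0.00395). After irradiation the cKO level was 0.29 ± 0.037 higher than WT (adjusted p = 1.24e-06). Without irradiation it was 0.085 ± 0.037 higher, not past the threshold (adjusted p = 0.134). That difference was called with only the libraries of the contrast (adjusted p = 0.00324) and without WT IR replicate 1 or 2 (0.0181 and 0.0327).

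Nfkbib (chr7:28758251-28767512) encodes IκBβ, which is resynthesised more slowly. Its levels in WT were 90.3, 93.0 and 84.0 CPM without and 123, 115 and 116 CPM with irradiation, and those in cKO were 91.2, 88.3 and 96.6 CPM without and 128, 123 and 127 CPM with it. No irradiated library overlapped an unirradiated one. The rise with irradiation was 0.40 ± 0.044 in WT (adjusted p = 4.3e-07) and 0.45 ± 0.044 in cKO (adjusted p = 4.6e-08), the largest increase among the 10 in either genotype. The difference between the rises was 0.05 (95% interval -0.074 to 0.17), and genotype did not change Nfkbib past the threshold in either condition. After irradiation Nfkbib was called higher in cKO without WT IR replicate 1 (0.12, adjusted p = 0.0133) and without the low count filter (0.11, adjusted p = 0.0469).

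Nfkbie (chr17:45555703-45563169) encodes IκBε. It was at 152, 159 and 149 CPM in WT Ctrl and 175, 170 and 180 in cKO Ctrl, without overlap, and at 170, 157 and 158 in WT IR and 180, 173 and 177 in cKO IR. It was higher in cKO in both conditions, by 0.19 ± 0.038 in Ctrl (adjusted p = 0.00116) and 0.13 ± 0.038 after irradiation (adjusted p = 0.00836). Its response to irradiation was not called in either genotype (0.08 in WT and 0.01 in cKO).

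The nuclear IκB genes had lower levels after irradiation, past the test for Bcl3 in both genotypes and for Nfkbid in cKO. Bcl3 (chr7:19808462-19822770), a partner of the NF-κB p50 and p52 homodimers, was at 90.7, 89.6 and 81.9 CPM in WT Ctrl, 80.0, 71.2 and 73.3 CPM in WT IR, 97.2, 94.4 and 98.7 in cKO Ctrl, and 69.5, 70.9 and 70.5 in cKO IR. Irradiated and unirradiated libraries did not overlap in either genotype. Bcl3 fell by 0.22 on the log2 scale in WT (standard error 0.046, adjusted p = 0.000785) and by 0.46 in cKO (0.046, adjusted p = 7.4e-08), and the fall was larger in cKO (difference -0.24 ± 0.066, adjusted p = 0.00914). Without irradiation it was higher in cKO by 0.15 ± 0.046 (adjusted p = 0.0355), a call that was lost without WT Ctrl replicate 3 (adjusted p = 0.208) and without each of cKO Ctrl replicates 1, 2 and 3 (adjusted p = 0.104, 0.0538 and 0.131).

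Nfkbid (chr7:30421732-30428746) encodes IκBNS and was the least abundant of the set in CPM, at 28.2 to 29.5 CPM in WT Ctrl, 24.2 to 29.5 in WT IR, 28.6 to 31.4 in cKO Ctrl and 24.4 to 25.8 in cKO IR. It fell with irradiation in cKO by 0.24 on the log2 scale (standard error 0.064, adjusted p = 0.00362). In WT the change was -0.12 ± 0.064 (adjusted p = 0.188), and the difference between genotypes was not called (adjusted p = 0.325).

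The ubiquitin regulators had log2 changes between -0.20 and 0.22 in all 5 contrasts. Tnfaip3 (chr10:19000910-19015657) encodes A20, which edits ubiquitin chains on receptor complexes, and its levels were tightly grouped, at 180, 184 and 179 CPM in WT Ctrl, 197, 192 and 196 CPM in WT IR, 192 in each of the 3 cKO Ctrl libraries, and 185, 186 and 183 in cKO IR. It rose by 0.11 ± 0.030 with irradiation in WT (adjusted p = 0.00714) and changed by -0.06 ± 0.030 in cKO (adjusted p = 0.142), and the difference between the genotypes was called (-0.17 ± 0.042, adjusted p = 0.00477). The rise in WT was at adjusted p = 0.0516 with only the 6 libraries of the contrast. Without irradiation cKO was 0.087 ± 0.030 higher than WT, not past the threshold (adjusted p = 0.0571). That difference was called with DESeq2 (adjusted p = 0.0381), with only the libraries of the contrast (0.00774) and without WT IR replicate 1 or 2 (0.0163 and 0.0329). After irradiation cKO was lower than WT (-0.08 ± 0.030, adjusted p = 0.0325), a call lost without WT Ctrl replicate 3, WT IR replicate 3 or any one of the cKO IR replicates (adjusted p = 0.0514 to 0.0874), with only the 6 libraries of the contrast (0.143), without the low count filter (0.223) and with the replicate block (0.0536). Tnip1 (chr11:54910785-54962917), which encodes the A20-binding protein ABIN1, had 500 to 604 CPM in all 12 libraries and was called in none of the 5 contrasts, with all log2 changes between -0.031 and 0.047. Without WT IR replicate 1, the replicate that stood apart, Tnip1 was called lower with irradiation in WT (-0.098, adjusted p = 0.00855) and called higher in cKO among the irradiated Inputs (0.11, adjusted p = 0.00178).

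Cyld (chr8:88697028-88751945) and Otulin (chr15:27542635-27630693) encode deubiquitinases, CYLD for K63-linked and linear chains and OTULIN for linear chains. Cyld was at 64.1 to 85.7 CPM over all Inputs, and was lower in cKO than in WT after irradiation (-0.20 ± 0.060, adjusted p = 0.01). The 2 groups overlapped, at 69.3, 85.7 and 75.9 CPM in WT IR and 66.5, 70.6 and 64.1 in cKO IR, and without WT IR replicate 2 the change was -0.12 (adjusted p = 0.0664), and without cKO IR replicate 3 it was -0.17 (adjusted p = 0.0565). Otulin was at 85.5, 86.6 and 79.9 CPM in WT Ctrl and 93.1, 96.5 and 93.1 in cKO Ctrl, and at 79.9, 74.7 and 79.0 in WT IR and 85.9, 95.0 and 91.0 in cKO IR. It was higher in cKO in both conditions, by 0.17 ± 0.044 (adjusted p = 0.0123) and 0.22 ± 0.044 (adjusted p = 0.00034), with no overlap of libraries. The unirradiated call was lost without WT Ctrl replicate 3 (adjusted p = 0.0885) and without cKO Ctrl replicate 2 (adjusted p = 0.0683).

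Irak3 (chr10:120141648-120202130) encodes IRAK-M, a kinase-like protein of myeloid cells that restrains signalling from Toll-like and IL-1 receptors, and it showed the largest genotype difference of the 10. Its Input levels were 271, 265 and 271 CPM in WT Ctrl and 379, 373 and 363 in cKO Ctrl, and 240, 254 and 254 in WT IR against 326, 340 and 334 in cKO IR. Every cKO library lay above every WT library. The difference was 0.47 ± 0.032 without irradiation (adjusted p = 2.0e-09) and 0.42 ± 0.032 after it (adjusted p = 1.6e-09), and it did not differ between conditions past the threshold (-0.05, 95% interval -0.14 to 0.043). Among the marker sums, those of neutrophils did not overlap between the Ctrl genotypes and overlapped between the IR genotypes. Those of monocytes were lower in cKO than in WT without irradiation (676 to 717 against 805 to 860 CPM) and higher after it (423 to 434 against 318 to 382). Without irradiation, those of macrophages (4030 to 4150 against 3850 to 3980 CPM) and dendritic cells (897 to 913 against 839 to 877) were higher in cKO. After irradiation the genotypes overlapped for both of these. The part of the marker shifts in the Irak3 difference was not tested. Irak3 fell slightly with irradiation, by 0.11 in WT (standard error 0.032, adjusted p = 0.0129, and 0.0507 without WT Ctrl replicate 1) and by 0.16 in cKO (0.032, adjusted p = 0.000447).

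**Figure D2:**
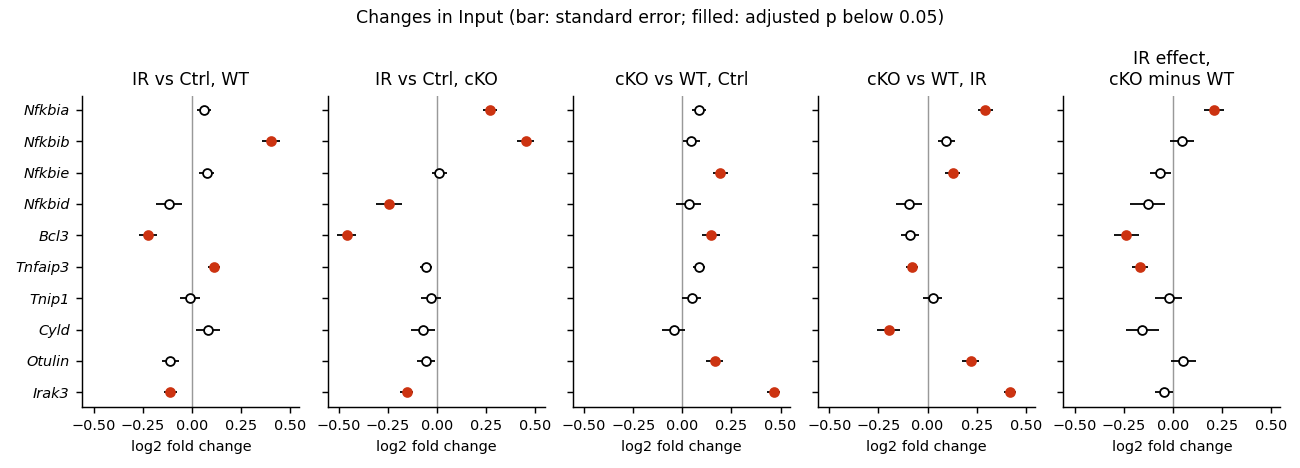
Log2 fold change in Input (horizontal axis) for the 10 genes in 5 contrasts, with standard errors as bars. Filled points have an adjusted p below 0.05. Nfkbib rose with irradiation in both genotypes (0.40 and 0.45), Bcl3 fell in both (-0.22 and -0.46), and Irak3 was higher in cKO in both conditions (0.47 and 0.42).

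Over the 12 Inputs, the genes whose log2 levels followed Irak3 most closely among 8113 candidates were Aoah, Slfn8 and Adgre1 (Pearson r = 0.994, 0.993 and 0.990). Adgre1 is 1 of the 6 macrophage markers summed above. Their sum did not separate the genotypes after irradiation (3620 to 4070 CPM in WT IR, 4010 to 4100 in cKO IR), whereas Irak3 did. For Nfkbib they were Itm2c, Scin and Cytip (0.989, 0.985 and 0.985), and for Bcl3 Trim8, Ubqln4 and Gna12 (0.991, 0.988 and 0.987). These values rest on 12 libraries in 4 groups and are descriptions.

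The rest of the pathway gives the setting. Of 25 NF-κB target genes, irradiation raised 14 and lowered 2 in WT, and raised 18 and lowered 1 in cKO, with a median log2 change of 0.23 and 0.55, where 14.7% of all genes rose and 17% fell in WT and 21.8% rose and 23.8% fell in cKO. In cKO against WT, 16 were higher and 2 lower without irradiation, and 19 higher and 1 lower after it, with medians of 0.22 and 0.42, where 8.05% of all genes were higher and 7.61% lower without irradiation and 23.9% higher and 23.8% lower after it. The chemokine gene Cxcl3 rose by 0.96 in WT and 1.28 in cKO, and the acute-phase gene Saa3 was 1.21 higher in cKO without irradiation and 2.18 after it. Lcn2, a neutrophil granule gene, was among the exceptions, with -2.19 for irradiation in WT and -1.07 for genotype in Ctrl.

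Among 11 NF-κB subunits and kinases, 7 rose and 2 fell with irradiation in WT, and 4 rose and 3 fell in cKO. The subunit gene Rel rose by 0.58 in WT and its response was smaller in cKO (difference -0.38, adjusted p = 4.7e-05). In cKO against WT, 3 of the 11 were higher and 1 lower without irradiation, where 15.7% of all genes were called. After irradiation 2 were higher and 6 lower, with a median log2 change of -0.12, where 47.7% of all genes were called. Ikbke, a kinase of the IKK family, was higher in cKO by 0.52 without irradiation and 0.39 after it, and Rel was lower in cKO after it (-0.33). Of 18 upstream adaptors and kinases, 3 rose and 4 fell with irradiation in WT, and 1 rose and 9 fell in cKO. Of 18 other negative regulators, 6 rose and 4 fell in WT, and 5 rose and 7 fell in cKO. These irradiation counts of the 3 lists, in both directions, stand beside 31.7% of all genes called in WT and 45.6% in cKO. In cKO against WT without irradiation, where 15.7% of all genes were called, 7 of 18 upstream adaptors and kinases were higher and 0 lower. Of the other negative regulators, 4 were higher and 1 lower. They included Usp18, a deubiquitinase-family protein that restrains interferon signalling, at 0.68, and Nfkbiz, which encodes the nuclear IκBζ, at 0.52. After irradiation, where 47.7% of all genes were called, 5 of the upstream list were higher and 6 lower. Of the other negative regulators, 6 were then higher and 5 lower.

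The second measurement was the share of each transcript recovered by the m6A antibody, taken as the log2 ratio of IP to Input with both kinds of library in 1 edgeR model over 17373 genes. In WT Ctrl, Otulin (0.995 ± 0.040), Nfkbie (0.63 ± 0.036) and Cyld (0.52 ± 0.050) were enriched, 3 of 10 where 38.1% of genes were, and 6 of 10 were depleted where 37.5% of genes were. Bcl3 (-1.73 ± 0.057), Nfkbid (-1.71 ± 0.067) and Irak3 (-1.26 ± 0.029) were the most depleted, followed by Nfkbia (-0.84 ± 0.034), Nfkbib (-0.76 ± 0.044) and Tnip1 (-0.16 ± 0.044). Tnfaip3 was at 0.0037 ± 0.026 (adjusted p = 0.902). In cKO Ctrl, Otulin (0.88) and Cyld (0.46) were enriched where 37.8% of genes were, and the other 8 were depleted where 36% were. The ratio is relative to the other transcripts of the library and is no stoichiometry.

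By label, WT IR had Otulin (0.89) and Cyld (0.29) enriched, with 37% of genes enriched and 36.5% depleted, and the other 8 members were depleted. In cKO IR, Cyld (0.84), Otulin (0.77) and Nfkbie (0.34) were enriched and 7 were depleted, with 36.9% of genes in each direction. With the irradiated IP libraries exchanged between the labels, an alternative chosen after seeing the data, Nfkbie was enriched in WT IR (0.47) and depleted in cKO IR (-0.26), and the other 9 kept their direction in both groups.

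**Figure D3:**
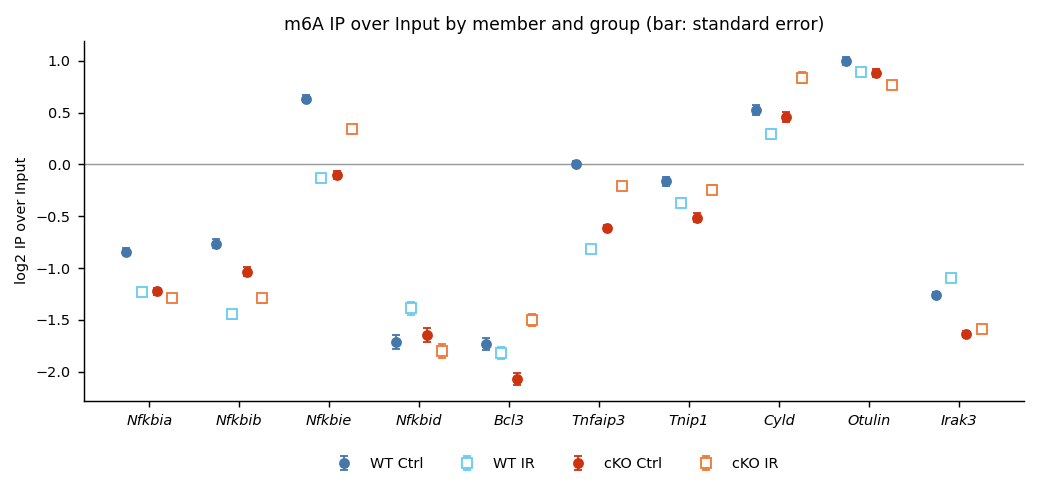
Log2 ratio of m6A IP to Input (vertical axis) for the 10 genes in the 4 groups, with standard errors as bars. Circles are Ctrl and squares IR groups as labelled. Otulin and Cyld lay above 0 in all 4 groups, Nfkbie in WT Ctrl (0.63) and in the libraries labelled cKO IR (0.34), and the nuclear IκB genes and Irak3 lay below -1 in all 4.

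Between the unirradiated groups, whose IP and Input libraries carried the Lyz2 level of their label, the IP-to-Input ratio of 7 of the 10 was lower in cKO and of none higher, where 22.6% of all genes were called in either direction. Nfkbie changed most (-0.74 ± 0.051, adjusted p = 2.4e-13). Its IP levels were 254, 253 and 262 CPM in WT Ctrl and 173, 182 and 177 in cKO Ctrl, while its Input level was higher in cKO. Tnfaip3 followed (-0.62 ± 0.037, adjusted p = 7.7e-15), with IP levels of 197, 196 and 194 CPM against 135, 136 and 137. The WT and cKO pulldowns did not overlap for either gene.

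The other calls were Nfkbia (-0.38 ± 0.048, adjusted p = 1.5e-07), Irak3 (-0.38 ± 0.041, adjusted p = 7.1e-09), Tnip1 (-0.35 ± 0.063, adjusted p = 5.4e-05), Bcl3 (-0.34 ± 0.080, adjusted p = 0.00176) and Nfkbib (-0.27 ± 0.062, adjusted p = 0.00104). Irak3 had similar pulldown levels in both (118 to 123 CPM in WT and 129 to 131 in cKO), and its ratio was lower beside a higher Input. For Nfkbid, Cyld and Otulin the changes were 0.06 (95% interval -0.12 to 0.25), -0.06 (-0.20 to 0.075) and -0.11 (-0.22 to -0.0039), none past the adjusted threshold. The median over the 10 was -0.34, and that of all genes was -0.0033. Neutrophil marker sums in the Inputs of these groups also differed (1790 to 1870 against 875 to 881 CPM), and their part in the change was not tested.

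With irradiation by label, 8 of 10 changed in WT (2 higher, 6 lower), where 41.4% of genes were called, and 6 in cKO (5 higher, 1 lower), where 45.4% were. The pulldown levels of Nfkbie and Tnfaip3 lined up with the Lyz2 level of the IP libraries. Those of Nfkbia, Nfkbib, Tnip1 and Cyld did so too, and those of Nfkbid and Irak3 were lower where Lyz2 was high. Bcl3 libraries overlapped, and Otulin did not line up. Nfkbie was at 158, 166 and 150 CPM in the libraries labelled WT IR and 243, 240 and 239 in those labelled cKO IR, near the cKO Ctrl and WT Ctrl values respectively, and the part of the labels in this was not tested. Tnfaip3 was at 120, 119 and 119 CPM and at 169, 174 and 173. With the irradiated IP libraries exchanged, 4 of 10 were called in WT, all lower, where 28.4% of genes were called, and 8 in cKO (3 higher, 5 lower), where 48.1% were. The cKO change of Nfkbie then turned from 0.44 to -0.16 and that of Tnfaip3 from 0.41 to -0.12, each called both ways. In WT the changes of Nfkbie and Tnfaip3 were lower in both versions, at -0.77 and -0.82 by label and -0.16 and -0.29 after the exchange. The calls that held their direction in both versions were the lower ratios of Nfkbia, Nfkbib, Nfkbie and Tnfaip3 in WT and, in cKO, the lower ratio of Nfkbib (-0.25 and -0.50) and the higher one of Bcl3 (0.57 and 0.34). Both versions use the same Inputs, so a changed Input enters both. In cKO, mean Bcl3 Input went from 96.7 to 70.3 CPM and its pulldown from 25.1 to 26.7 (22.8 after the exchange). Mean Nfkbib Input went from 92.0 to 126 CPM and its pulldown from 48.7 to 55.4 (46.6 after the exchange). In WT the Nfkbib Input also rose, from 89.1 to 118 CPM. For the other members no direction is drawn from the irradiated pulldowns.

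Peaks called by the authors in single IP libraries show where on the transcripts the pulldown rose above Input. A consensus peak was one found in all 3 libraries of a group, overlapping by at least 1 base. In WT Ctrl 4 of the 10 genes had one (Nfkbie, Tnfaip3, Cyld and Otulin), against 29.6% of 16084 genes. In cKO Ctrl 2 did (Cyld and Otulin), against 27.7%. By label, WT IR had 2 (Cyld and Otulin), against 25.1%, and cKO IR 3 (Nfkbie, Cyld and Otulin), against 22.3%. No peak was called on Nfkbia, Nfkbib, Nfkbid, Bcl3 or Irak3 in any of the 12 libraries, and Tnip1 had 1 peak in 1 library.

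The coding sequence at the summits of peaks shared by the libraries is shown for the genes with the strongest signal and for Nfkbie, on the transcript strand of GRCm38.p6, with the m6A consensus in capitals. The consensus searched has 5 letters on the transcript strand: any base but cytosine, then a purine, then AC, then any base but guanine, and overlapping matches run together.
Cyld, plus strand, chr8:88705682-88705782: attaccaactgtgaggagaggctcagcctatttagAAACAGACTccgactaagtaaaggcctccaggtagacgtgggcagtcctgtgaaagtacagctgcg
Otulin, minus strand, chr15:27606343-27606443: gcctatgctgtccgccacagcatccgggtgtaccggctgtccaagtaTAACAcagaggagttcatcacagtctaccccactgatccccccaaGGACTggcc
Otulin, minus strand, chr15:27608746-27608846: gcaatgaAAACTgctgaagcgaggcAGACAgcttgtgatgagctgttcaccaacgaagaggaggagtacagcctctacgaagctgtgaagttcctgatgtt
Nfkbie, plus strand, chr17:45559237-45559337: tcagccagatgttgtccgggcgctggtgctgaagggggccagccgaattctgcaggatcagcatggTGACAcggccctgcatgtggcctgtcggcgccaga
The Cyld window lies in the coding part of exon 1 of its transcript model, the Otulin windows in exons 7 and 6, and the Nfkbie window in exon 3. The Cyld peak in exon 2, with a mean fold of 4.565 against 4.593 at exon 1 in WT Ctrl, is not shown. It held no match to the consensus within 50 bases of its summit in any group. Of the 12 exonic consensus peaks of these genes in WT Ctrl, 10 held the consensus within 50 bases of the summit, against 88.7% of all 12181 consensus peaks, and 1 held its form that opens with GGAC, against 31.8%. The match of that form in the first Otulin window is in the summit window of the cKO Ctrl, WT IR and cKO IR libraries.

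Cyld carried the highest peaks of the set. At its exon 1 peak the fold over Input given by the peak caller was 5.23, 5.25 and 3.30 in the 3 WT Ctrl libraries and 3.28, 3.87 and 3.75 in cKO Ctrl. At exon 2 it was 5.27, 4.64 and 3.78 against 5.14, 3.57 and 4.505. The genotypes overlapped at both. A further peak in exon 7, 1349 bases before the stop codon, had a mean fold of 2.68 ± 0.27 (SD, n = 3) in WT Ctrl and was a consensus peak there and in cKO IR.

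Otulin had peaks in exon 6 and exon 7 in all 4 groups. The fold at exon 6 was 2.44, 2.87 and 2.33 in WT Ctrl and 2.39, 2.29 and 2.17 in cKO Ctrl, and that at exon 7 was 3.05, 4.51 and 3.20 against 2.45, 2.81 and 2.465. The exon 6 values overlapped. At exon 7 the peaks of cKO Ctrl replicates 2 and 3 also spanned the separate WT peak of the 3′ UTR, so the folds are given side by side. A further Otulin peak had its summit at the edge of exon 4, on the exon or the intron side depending on the library. It was shared by all libraries in WT Ctrl (mean fold 3.92 ± 0.57, SD, n = 3) and in WT IR by label (4.27 ± 0.99). It was found in 1 of 3 cKO Ctrl libraries (replicate 3, fold 4.37) and in no cKO IR library.

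Nfkbie carried 5 consensus peaks in WT Ctrl, 3 in coding exons 1, 3 and 5 and 2 in the 3′ UTR, with mean folds from 1.47 to 2.93. In cKO Ctrl the 3 libraries had 1, 2 and 2 peaks on this gene, none shared by all 3. Replicates 2 and 3 shared a peak in exon 3 (folds 1.99 and 1.68) and another in the 3′ UTR, and replicate 1 had only the exon 5 peak. The lack of a consensus peak on Nfkbie in cKO Ctrl thus rests on replicate 1. The WT Ctrl libraries had 5 each. The Tnfaip3 consensus peak of WT Ctrl covered 811 bases around the stop codon at folds of 2.01, 1.71 and 1.96, and in cKO Ctrl 1 of 3 libraries had a peak. The Tnfaip3 peak was lost when peaks had to overlap reciprocally by 0.5 of their length. Nfkbie and Tnfaip3, without a consensus peak in cKO Ctrl, also had the largest drop in the pulldown ratio. These 2 readouts come from the same libraries and are not independent.

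**Figure D4:**
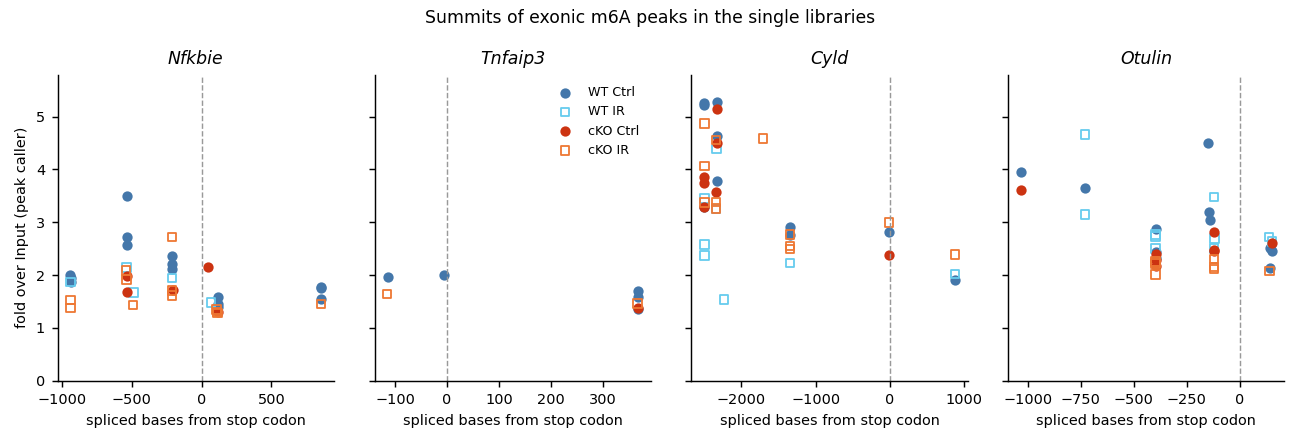
Fold over Input given by the peak caller (vertical axis) at the summit of each exonic m6A peak in the single libraries, against the distance of the summit from the stop codon in spliced bases (negative: before it). Circles are Ctrl and squares IR groups as labelled. Cyld peaks were highest far before the stop codon, up to 5.27, and on Nfkbie the WT Ctrl peaks of exon 3 (2.58 to 3.49) lay above the cKO Ctrl ones.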

How the data were processed

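The deposited files were 1 table of gene counts per library and, for IP libraries, MACS2 peak lists. Trimming used Trimmomatic 0.39 and alignment HISAT in a stranded setting against mm10 with GENCODE vM19, and the authors then made the deposited counts per gene with HTSeq, whole numbers without normalization. Peaks were called by the authors with MACS2 in each library and strand, with fold enrichment (a ratio) and −log10 q-values as deposited; the deposited score column, which MACS2 derives from the q-value, was not used. The Input that served as control is not given in the sources used here. Peaks were handled by the authors with bedtools 2.26.0.

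From these files, counts were tested with edgeR 4.0.16 (R 4.3.3), quasi-likelihood with TMM scaling, after a filter of 10 counts in 3 libraries, the 12 Inputs in 1 model and all 24 libraries in another, with Benjamini-Hochberg adjustment over all genes. The biological coefficient of variation was 5.57% and 4.98%. Lines of HTSeq that name no gene were left out (no feature, 2.97% to 6.8% of reads; ambiguous, 2.27% to 2.68%). Levels are CPM with TMM scaling over the 12 Inputs (Input) or all 24 libraries (IP), and correlations of patterns used log2(CPM + 0.1). DESeq2 1.42.0 was an alternative. Scripts were tested on simulated data. Peaks and sequences were read on GRCm38.p6 with GENCODE vM21, and 54409 of 54446 identifiers matched. Alternatives are in the closing section.

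The 10 genes and all lists were chosen with earlier results of these data known. Named genes were the 10 members, Ythdf2, Lyz2 and Itgam, up to 2 called genes with the largest change per pathway list and contrast, and the 3 genes most alike in pattern, above 10 CPM, for the 3 members of widest range. Intervals cover 95%. Same-numbered libraries did not deviate together, so no pairing was used.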

Additional observations from a re-analysis of the deposited data

Results flagged for a closer look

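The response to irradiation in the Inputs differed between the genotypes for 3 of the 10 genes, by a test of the difference itself (edgeR interaction, adjusted p over all genes). It was larger in cKO by 0.209 for Nfkbia on the log2 scale, and the value was -0.236 for Bcl3 and -0.167 for Tnfaip3. Nfkbia and Tnfaip3 changed past the threshold in 1 genotype only, Nfkbia in cKO and Tnfaip3 in WT, and Bcl3 in both.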

How the results depend on the processing

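Without the low count filter, with RLE size factors or with DESeq2, every count of members stayed within 1.5 times its value. With only the 6 libraries of the contrast, the count for WT IR against WT Ctrl fell from 4 to 2, as Tnfaip3 and Irak3 were no longer called. Leaving out 1 library gave 3 to 8 there (8 without WT IR replicate 1, adding Nfkbid, Tnip1, Cyld and Otulin), 2 to 6 for cKO Ctrl against WT Ctrl (2 without WT Ctrl replicate 3 or cKO Ctrl replicate 2), 4 to 8 for cKO IR against WT IR, 5 in each case for cKO IR against cKO Ctrl and 3 to 4 for the interaction. For members with a consensus peak, leaving out 1 library gave 2 to 3 in cKO Ctrl and in WT IR, and 4 in WT Ctrl and 3 in cKO IR in each case. At a fold of at least 4 the count of members with a consensus peak fell to 0 in all 4 groups. The causes were not tested.

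Replicate numbers are shared by the groups but no pair of groups had every correlation of deviations above 0.1. With the replicate block the counts of called genes were 4, 5, 4, 5 and 3 in the 5 Input contrasts, and 7, 8 and 6 for the changes in IP over Input. Only the call of Tnfaip3 in cKO IR against WT IR was lost (log2 -0.08, adjusted p = 0.0536).

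Directions that turned belonged to changes not called as reported, apart from Irak3 in WT with the other label's Input and several results with the irradiated IP libraries exchanged. When 1 library was left out, Tnip1 ran from -0.0982 to 0.0427 for irradiation in WT (0.0254, 0.0427 and 0.023 without WT Ctrl 2, WT IR 2 and WT IR 3), from -0.0271 to 0.114 in cKO IR against WT IR (-0.0271 and -0.00742 without WT IR 2 and 3) and from -0.074 to 0.0667 in the interaction (0.00391 and 0.0667 without WT Ctrl 3 and WT IR 1). Nfkbie with irradiation in cKO ran from -0.00782 to 0.0329 and Nfkbid in cKO Ctrl against WT Ctrl from -0.0143 to 0.057. Tnfaip3 IP over Input in WT Ctrl ran from -0.0128 to 0.00769 in this way, and was -0.0534 with DESeq2 (adjusted p = 0.02), -0.0533 with RLE size factors and -0.0259 with only the unirradiated libraries, chosen after seeing the data. With the other label's Input, the change in IP over Input with irradiation was 0.00261 for Bcl3 and -0.253 for Irak3 in WT, and 0.234 for Nfkbia and 0.107 for Otulin in cKO, and 9 members were called in cKO in place of 6. With the irradiated IP libraries exchanged between the labels (chosen after seeing the data), IP over Input of Nfkbie was 0.471 in WT IR and -0.265 in cKO IR. The change with irradiation was -0.183 for Nfkbid, 0.142 for Bcl3 and 0.116 for Cyld in WT, and -0.163 for Nfkbie, 0.354 for Nfkbid and -0.12 for Tnfaip3 in cKO. The count of called changes fell from 8 to 4 in WT and rose from 6 to 8 in cKO.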
